A study of Mus musculus with 4 samples.

Results

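Cadherins and protocadherins are the cell surface proteins described here, as their transcripts appeared in the olfactory bulbs of Unc80 knock-in mice. The members were all genes of the deposited expression table whose symbol is Cdh followed by a number, or begins with Pcdh. The rule found 87 genes of 15818, namely 20 numbered cadherins, 13 Pcdha genes, 21 Pcdhb genes, 22 Pcdhg genes and 11 nonclustered protocadherins. RefSeq lists 92 protein-coding mouse genes with such symbols, and 86 of them were in the table. Cdh16, Cdh17, Cdh26, Pcdh12, Pcdha10 and Pcdhb1 were not analysed here, and Pcdhgb8, a transcribed pseudogene in RefSeq, was the remaining member.

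The study asked what follows when the editing site of Unc80, a subunit of the NALCN sodium leak channel complex, is fixed in either form. RNA from whole olfactory bulb was sequenced in 4 libraries. The 2 Unc80 S/S libraries (labelled unedited) came from mice whose serine codon was replaced by a synonymous codon that blocks editing, and the 2 Unc80 G/G libraries (labelled edited) from mice that carry the glycine codon in the genome. The paper describes male mice aged 2 to 5 months with 3 mice in each pool. Both alleles were made with CRISPR/Cas9 in embryos of B6D2F1 mothers, all 4 libraries carry a knock-in allele, and there is no unmodified control among them. The number of founder lines was not stated, so the engineered codon and other inherited differences between the lines cannot be told apart. The level of Unc80 itself does not check the labels, because both alleles are transcribed, and the table gave means of 660.9 CPM in S/S and 633.1 CPM in G/G. Its partner Nalcn, the pore of the channel, had means of 133.2 and 133.9 CPM.

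Classical cadherins are calcium-dependent adhesion proteins that bind the same cadherin on a neighboring cell and hold on to the actin cytoskeleton through catenins. Clustered protocadherins are encoded in tandem arrays on mouse chromosome 18, where each variable exon has its own promoter and neurons use different combinations of them, which gives a neuron a surface identity and lets branches of the same cell avoid each other. CTCF and cohesin take part in the choice of promoter, and the C-type isoforms at the ends of the Pcdha and Pcdhg arrays are expressed more uniformly. In the mouse olfactory system, protocadherin diversity is needed for the axons of sensory neurons to form proper glomeruli. The nonclustered protocadherins are single genes spread over the genome and act in adhesion, cell movement and axon growth.

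The deposited values are the mean CPM (the reads of a gene over all counted reads of its library, scaled to 1000000) of each genotype, so 74 of the 87 genes have 1 value per genotype with no SD. Total reads ranged from 35465913 to 38051810 per library, and 24738078 to 26479648 counted reads stand behind the CPM values. For 13 members (5 numbered cadherins and 8 Pcdhb genes) both means could be written as whole reads of each library. In 34 members, among the Pcdha and Pcdhg genes, at least 10% of the exon bases also belong to another gene on the same strand, mainly the constant exons to which all genes of an array are spliced. The assignment of a Pcdha or Pcdhg read to its variable exon is thus uncertain. Among all genes with recovered reads, libraries of the same genotype scattered more than counting alone would give (the chi-square per gene averaged 1.60 between the S/S libraries and 1.88 between the G/G libraries, where counting gives 1). The counting intervals printed here are therefore narrower than the full error.

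Levels between genes were compared as CPM per kb of annotated exon, averaged over both genotypes. The highest level was that of Pcdhgc3, a C-type isoform, with 31.2 CPM per kb. It was followed by Pcdh10 with 21.7, Pcdh20 (20.5 in S/S and 19.5 in G/G), Pcdh1 with 18.9 and Pcdhgc5 with 18.5 CPM per kb. The 5 highest levels were thus those of 3 nonclustered genes and 2 C-type isoforms, but other members of both groups were low, such as Pcdh19 with 2.61 and the C-type Pcdhac1 with 0.905 CPM per kb. The 11 nonclustered genes held 39.7% of the summed CPM of all members in S/S and 40.3% in G/G. The numbered cadherins held 20.3% in both genotypes. The Pcdhg genes held 25.5% in S/S and 25% in G/G, the Pcdhb genes 9.0% and 9.2%, and the Pcdha genes 5.4% and 5.3%.

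Among the numbered cadherins the order began with Cdh2 (N-cadherin, the main neural classical cadherin) at 16.6, Cdh4 (R-cadherin) at 12.9 and Cdh22 at 10.7 CPM per kb. It ended with Cdh15 (M-cadherin, known from muscle) at 0.314 CPM per kb. Among the Pcdha genes with a gene model the C-type Pcdhac2 had 8.66 CPM per kb, followed by Pcdha9 with 2.98 and Pcdha5 with 2.72. Of these genes Pcdha8 had the lowest level, 0.398 CPM per kb. Pcdha11 has no level per kb, because its symbol matched 2 genes of the annotation, so its place in the order is unknown. Its mean over both genotypes was 16.42 CPM, beside 15.91 CPM for Pcdha9 and 14.15 CPM for Pcdha5. Pcdhac2 alone accounted for 29.3% of the Pcdha CPM in S/S and 29.7% in G/G. The Pcdhb genes, which have no constant exons, spanned a narrower range, from 1.68 CPM per kb in Pcdhb2 to 6.17 in Pcdhb17, with Pcdhb9 at 6.13 and Pcdhb20 at 5.93. These 3 Pcdhb levels lay close together, and the genotype means overlapped between the genes (5.91 and 6.42 for Pcdhb17, 6.34 and 5.93 for Pcdhb9, 6.05 and 5.81 for Pcdhb20). In the Pcdhg array Pcdhga11 followed the C-type genes Pcdhgc3 and Pcdhgc5 with 12.4 CPM per kb. Pcdhgc3 to Pcdhgc5 together held 44.7% of the Pcdhg CPM in S/S and 44.5% in G/G. The order of the members was nearly the same in both genotypes, with a Spearman correlation of 0.997 over the 87 genes and of 0.984 to 0.998 within the classes. The genes are not independent replicates and share libraries and length, so these values are descriptions.

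**Figure D1:**
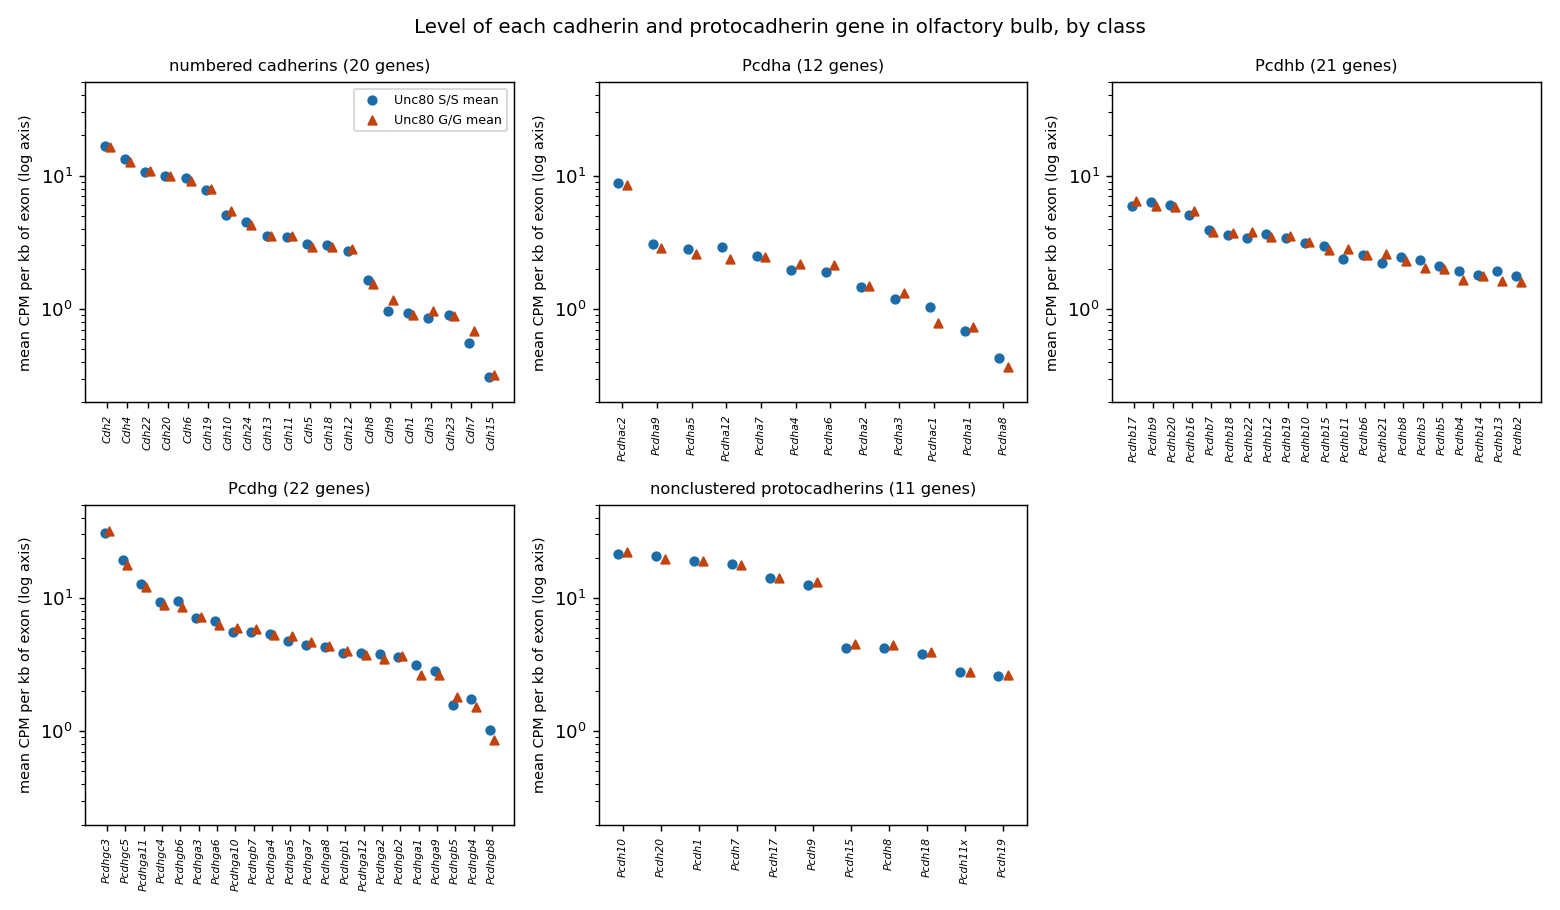
Mean CPM per kb of exon (log axis) for the 86 members with a gene model, by class and from the highest to the lowest, with a circle for the Unc80 S/S mean and a triangle for the Unc80 G/G mean. Pcdhgc3 (31.2 CPM per kb over both genotypes) stands highest, and the symbols of the genotypes lie close together in nearly every gene.

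The genotype comparison asked whether the adhesion genes differed between bulbs with the fixed serine and those with the fixed glycine form of Unc80. The class sums differed little. The summed CPM of the numbered cadherins was 655.4 in S/S and 652.3 in G/G. For the Pcdha genes the sums were 175.8 and 170.0 CPM, for the Pcdhb genes 292.0 and 295.0, for the Pcdhg genes 823.6 and 805.5, and for the nonclustered protocadherins 1283 and 1298. As log2 of G/G over S/S with 95% counting intervals, the differences of the sums were -0.007 (-0.029 to 0.015) for numbered cadherins, -0.048 (-0.091 to -0.006) for Pcdha, 0.015 (-0.018 to 0.048) for Pcdhb, -0.032 (-0.052 to -0.012) for Pcdhg and 0.017 (0.002 to 0.033) for nonclustered genes. The intervals of 3 classes left out 0, but they do not hold the spread between pools, which is unknown for these sums. In the 8 Pcdhb genes with recovered reads, the summed CPM was 95.51 and 102.4 in the S/S libraries alone. In bulk tissue, fewer cells of a type and less RNA per cell cannot be told apart.

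Of the 87 members, 41 had the higher mean in G/G and 46 in S/S, beside 47.2% of all genes with the higher mean in G/G. The median log2 difference was -0.014 over the members and -0.005 over all genes. By class the median was 0.005 for numbered cadherins, -0.033 for Pcdha, -0.058 for Pcdhb, -0.040 for Pcdhg and 0.023 for nonclustered protocadherins. The median and the sum had opposite signs in the numbered cadherins and in the Pcdhb genes. The median size of the difference, without sign, was 0.072 for members and 0.054 for all genes. In each band of abundance it was larger in members (0.177 and 0.143 under a mean of 5 CPM, 0.092 and 0.072 from 5 to 20 CPM, 0.056 and 0.036 from 20 CPM). The lowest band holds 9 members and the highest has no upper limit, so abundance, and with it counting error, is not matched within the bands. The uncertain reads of the Pcdha and Pcdhg genes also enter these values.

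A difference of 1.3-fold between the genotype means was reached by 1 member, lower in G/G, and by no member higher in G/G, beside 0.929% of all genes lower and 1.42% higher. That member was Pcdhac1, the less abundant C-type isoform of the Pcdha array, with means of 5.56 CPM in S/S and 4.25 CPM in G/G. The ratio was 1.31-fold (log2 -0.39, 95% counting interval -0.64 to -0.13) and rested on about 288 reads in S/S and 213 in G/G. Its level was 0.905 CPM per kb, and it fell just inside the limit among genes under a mean of 5 CPM, where 4.14% of all genes were lower and 6.22% higher by this measure. The nearest members outside the limit were Pcdha12, 1.24-fold lower in G/G, and Cdh7, 1.25-fold higher. At a limit of 1.2-fold these gave 2 members lower and 1 higher, beside 2.36% and 3.38% of all genes.

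**Figure D2:**
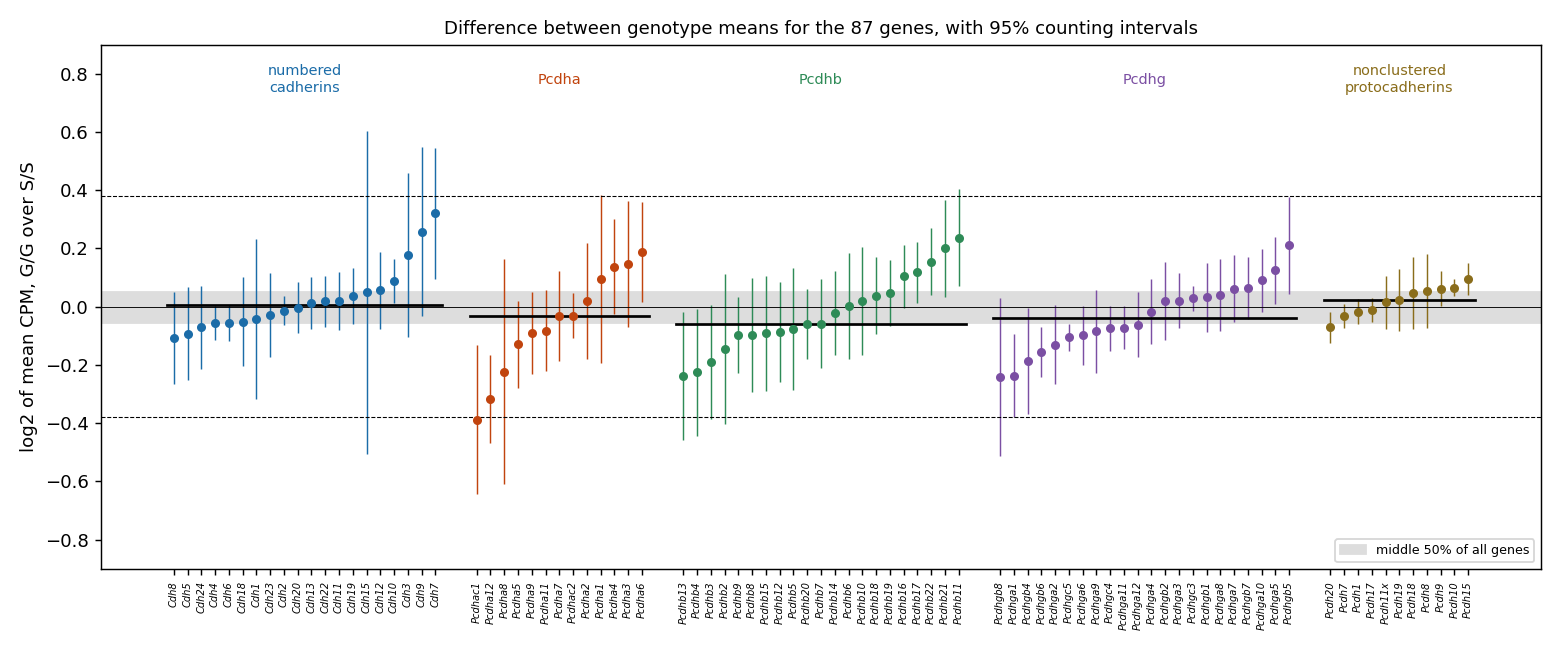
Log2 of the mean CPM in Unc80 G/G over Unc80 S/S for the 87 members by class, with bars for 95% counting intervals, thick black lines for class medians, dashed lines at 1.3-fold and a gray band for the middle 50% of all genes. Pcdhac1 (-0.39) is the single member beyond a dashed line, and the class medians lie between -0.058 and 0.023.

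Among the numbered cadherins, Cdh7, a type II cadherin, had the largest difference. Its mean was 5.54 CPM in S/S and 6.91 CPM in G/G (log2 0.32, 95% counting interval 0.09 to 0.55), from about 286 and 346 reads. Cdh10, another type II cadherin, had means of 51.26 and 54.49 CPM (log2 0.09, interval 0.01 to 0.17). On the other side were Cdh8, also of type II, with 12.87 and 11.95 CPM (log2 -0.11, interval -0.27 to 0.05) and Cdh5 with 12.98 and 12.18 CPM (log2 -0.09, interval -0.25 to 0.07). The neural type I cadherins Cdh2 (134.3 CPM in S/S and 133.1 in G/G) and Cdh4 (95.52 and 91.84) had log2 differences of -0.01 and -0.06. The 13 type II genes summed to 362.0 CPM in S/S and 363.5 in G/G, and the 5 type I genes to 238.8 and 234.3.

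Cdh7 and Cdh20 are both on chromosome 1, as is Unc80, and Cdh20 had means of 40.0 and 39.9 CPM. Cdh19, also a type II cadherin on chromosome 1, had 33.14 and 34.02 CPM (log2 0.04). The promoter windows of Cdh7 and Cdh20 are shown. They belong to the numbered cadherin with the largest difference and to a relative on the same chromosome with almost none. The windows are from RefSeq (GRCm38.p6, 300 bases around the RefSeq start of the gene, most of them before it), at chr1:109982650-109982949 for Cdh7 and chr1:104768270-104768569 for Cdh20, both on the plus strand. In GENCODE M21, used here for exon lengths, Cdh7 starts at 109982431, so its window lies wholly after that start. Cdh20 starts there at 104768529, inside its window. The windows run 5′ to 3′, with each CG dinucleotide, the site of DNA methylation, in capitals.
Cdh7: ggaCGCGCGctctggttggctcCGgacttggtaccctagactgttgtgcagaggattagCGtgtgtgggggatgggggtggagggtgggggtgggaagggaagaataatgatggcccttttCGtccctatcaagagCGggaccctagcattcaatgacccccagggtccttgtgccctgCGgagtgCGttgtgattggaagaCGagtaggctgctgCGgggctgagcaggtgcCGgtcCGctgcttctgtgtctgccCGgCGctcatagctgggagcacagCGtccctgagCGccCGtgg
Cdh20: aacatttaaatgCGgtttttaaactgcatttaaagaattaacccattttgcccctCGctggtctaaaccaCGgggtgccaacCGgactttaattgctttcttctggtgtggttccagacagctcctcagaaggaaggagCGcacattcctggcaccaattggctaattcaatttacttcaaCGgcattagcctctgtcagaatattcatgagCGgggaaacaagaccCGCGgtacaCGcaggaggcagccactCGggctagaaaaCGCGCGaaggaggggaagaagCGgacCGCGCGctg
Each window held 18 CG dinucleotides (the same on both strands), a number reached by 30.1% of the windows of 27025 genes. The GC content was 62.7% in Cdh7 and 50.7% in Cdh20. Over the 21 members with a window the median was 14 CG dinucleotides, with a range of 2 to 38. Over all genes with a window the median was 7. The promoter source held no windows for the Pcdha, Pcdhb and Pcdhg genes, nor for Cdh2 and Pcdh1. The median of the members thus does not describe the clustered protocadherins. Methylation was not measured in these samples, and the match of letters is a description.

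In the Pcdha array, Pcdha12 had means of 15.63 CPM in S/S and 12.56 CPM in G/G (log2 -0.32, 95% counting interval -0.47 to -0.17), from about 809 and 629 reads. Pcdha5 followed with 14.79 and 13.51 CPM (log2 -0.13, interval -0.28 to 0.02). In the other direction Pcdha6 had 10.13 and 11.53 CPM (log2 0.19, interval 0.02 to 0.36) and Pcdha3 had 6.33 and 7.00 CPM (log2 0.15, interval -0.07 to 0.36). The array thus held members on both sides, 5 higher and 8 lower in G/G. The dominant isoform Pcdhac2 had 51.55 and 50.46 CPM (log2 -0.03), and 48.6% to 91.4% of the exon bases of the Pcdha genes with a gene model are shared with other genes. For Pcdha4 (91.4%), Pcdha6 (57.4%) and Pcdha7 (59.9%) these include predicted genes outside the Pcdha family, and in the others the share within the array was 48.6% to 54.9%.

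The Pcdhg genes were also mixed, with 10 higher and 12 lower in G/G. Pcdhga1 had means of 16.83 CPM in S/S and 14.28 CPM in G/G (log2 -0.24, 95% counting interval -0.38 to -0.09), and Pcdhgb4 had 10.13 and 8.90 CPM (log2 -0.19, interval -0.37 to -0.01). Pcdhgb5 had 10.57 and 12.23 CPM (log2 0.21, interval 0.04 to 0.38) and Pcdhga5 had 22.32 and 24.34 CPM (log2 0.13, interval 0.01 to 0.24). Over the 3 Pcdhgc genes the median size of the difference was 0.075, beside 0.080 over all Pcdhg genes. Pcdhgc3 had 169.9 and 173.3 CPM, Pcdhgc5 had 146.0 and 135.7 CPM (log2 -0.11, interval -0.15 to -0.06), and Pcdhgc4, an isoform that mouse interneurons need for survival, had 52.34 and 49.68 CPM. Taken as a group, the 5 C-type genes of both arrays summed to 425.3 CPM in S/S and 413.3 in G/G (log2 -0.041, interval -0.069 to -0.014). Of the 5, 4 were lower in G/G and Pcdhgc3 was higher, beside 47.2% of all genes with the higher mean in G/G. The sums of the other isoforms differed in the same direction, with log2 -0.042 (interval -0.093 to 0.010) for the other Pcdha genes. For the Pcdhga genes it was -0.026 (-0.057 to 0.006) and for the Pcdhgb genes -0.031 (-0.079 to 0.017). Pcdhg genes share 31.5% to 66.8% of their exon bases with each other or with predicted genes that overlap the array.

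The nonclustered protocadherins had the narrowest range, from -0.07 to 0.10 on the log2 scale. This was also the smallest class, with 11 genes, and the most abundant. Its median level was 104 CPM, beside 11.3 to 24.4 CPM in the other classes, so the ranges are not matched for number or abundance. Pcdh15, which with Cdh23 forms the tip links of hair cells in the inner ear, had means of 100.4 CPM in S/S and 107.3 CPM in G/G (log2 0.10, 95% counting interval 0.04 to 0.15). Pcdh10, which recruits the actin regulator Nckap1, had 336.7 and 352.3 CPM (log2 0.07, interval 0.03 to 0.10). Pcdh20 had 112.4 and 107.0 CPM (log2 -0.07, interval -0.13 to -0.02), and Pcdh7 had 191.2 and 187.1 CPM (log2 -0.03). The 5 delta-2 genes, to which Pcdh10 belongs, summed to 587.3 CPM in S/S and 603.2 in G/G, and the 4 delta-1 genes, to which Pcdh1 and Pcdh7 belong, to 482.6 and 480.6.

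A difference of more than 2 counting standard errors between the means was seen for 21 of the 87 members (24.1%), beside 15.2% of all genes. Of these, 12 were higher in G/G, beside 7.41% of all genes, and 9 were lower, beside 7.78%. Counting error shrinks with abundance, and members under 5 CPM had 1 of 9 beyond this limit (8.46% of all genes there), members from 5 to 20 CPM 10 of 38 (10.6%) and members from 20 CPM 10 of 40 (20.2%). By class the count was 2 of 20 numbered cadherins, 3 of 13 Pcdha, 6 of 21 Pcdhb, 6 of 22 Pcdhg and 4 of 11 nonclustered genes. This measure was added after the values were seen. It takes no account of the spread between pools or of reads shared between isoforms, and the part of either in these counts was not tested.

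For the 13 members with recovered reads the libraries can be seen one by one. Their order within a genotype is by counted reads, since the values carry no library number. Pcdhb13 had 190 and 177 reads in the S/S libraries (7.18 and 7.01 CPM) and 142 and 159 reads in the G/G libraries (5.60 and 6.43 CPM). Pcdhb4 had 189 and 182 reads in S/S (7.14 and 7.21 CPM) and 146 and 161 in G/G (5.76 and 6.51 CPM). Both G/G libraries were below both S/S libraries in each gene. The log2 difference was -0.24 ± 0.12 (SE) for Pcdhb13 and -0.23 ± 0.12 for Pcdhb4, with adjusted p = 0.974 for both in edgeR's quasi-likelihood test with Benjamini-Hochberg adjustment over the 2155 genes with recovered reads. Leaving out 1 library at a time moved these differences between -0.34 and -0.14 for Pcdhb13 and between -0.32 and -0.14 for Pcdhb4, and the largest came without the G/G library with fewer counted reads.

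Pcdhb3 had 8.38 and 9.11 CPM in S/S and 7.54 and 7.80 in G/G, and Pcdhb5 had 7.36 and 7.45 in S/S and 7.18 and 6.87 in G/G. Here too the G/G libraries lay lower. Pcdhb16 had 24.9 and 27.9 CPM in S/S and 29.3 and 27.4 in G/G, Pcdhb18 had 465 and 475 reads in S/S and 457 and 478 in G/G, Pcdhb14 had 15.3 and 16.0 in S/S and 15.6 and 15.2 in G/G, and Pcdhb15 had 7.67 and 8.92 in S/S and 8.36 and 7.20 in G/G. In these 4 genes the genotypes overlapped. Summed over the 8 Pcdhb genes, the G/G libraries had 97.37 and 96.77 CPM and lay between the S/S libraries.

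Among the recovered numbered cadherins, Cdh24, a type II cadherin, had 16.3 and 15.1 CPM in S/S and 15.0 and 14.9 in G/G, and Cdh3 (P-cadherin) had 3.89 and 3.57 CPM in S/S and 4.14 and 4.28 in G/G. The genotypes did not overlap in either gene, but the gap in Cdh24 was small. Cdh20 had 38.0 and 42.0 CPM in S/S and 40.9 and 38.9 in G/G. Cdh15 had 1.06 and 0.951 CPM in S/S and 0.986 and 1.09 in G/G, from 24 to 28 reads per library. Cdh5 (VE-cadherin, the adhesion protein of endothelial junctions) had 14.2 and 11.7 CPM in S/S and 12.5 and 11.8 in G/G, and these last 3 genes overlapped between genotypes. Beside Cdh5, the 10 brain endothelial markers summed to 205.6 CPM in S/S and 209.5 in G/G, with 4 higher and 6 lower, and their part in the Cdh5 values was not tested.

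In all, 5 recovered members were lower in G/G without overlap, 1 was higher and 7 overlapped, beside 14.7% lower and 17.7% higher among the 2155 genes. No recovered member passed an adjusted p of 0.05 in edgeR, and none had an unadjusted p under 0.05 (adjusted p from 0.974 to 0.996), beside 0.0928% and 5.43% of the genes with recovered reads. DESeq2 and limma on log2(CPM + 1) also called none of the 13.

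**Figure D3:**
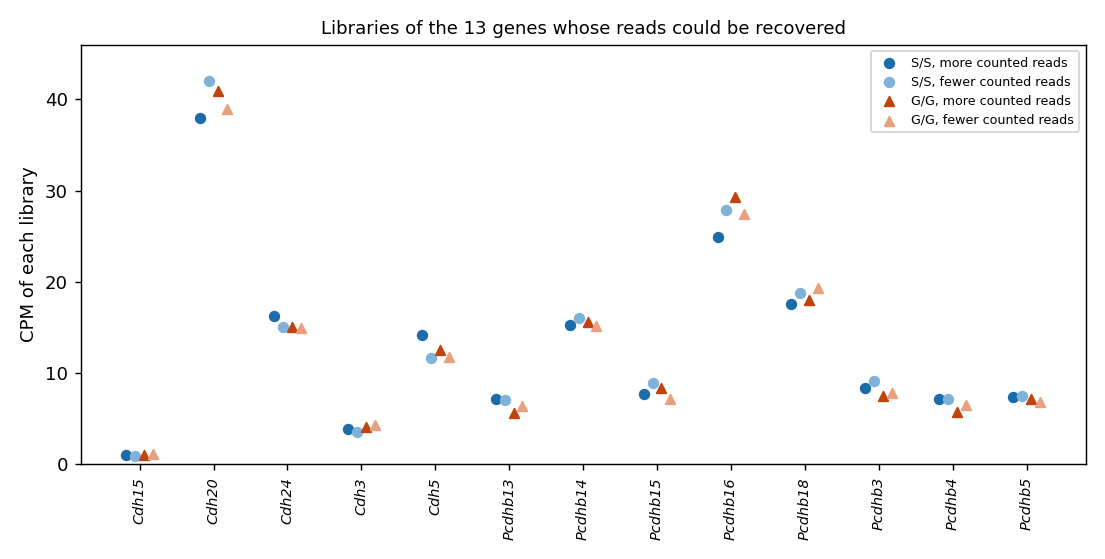
CPM in each of the 4 libraries for the 13 members with recovered reads, with circles for Unc80 S/S, triangles for Unc80 G/G and the darker symbol for the library with more counted reads. In Pcdhb3, Pcdhb4, Pcdhb5, Pcdhb13 and Cdh24 both triangles lie below both circles, in Cdh3 above, and in the other 7 genes they overlap.

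The Pcdhb genes are also given by their place in the array. The split at Pcdhb16 was chosen after the values were seen, so the counts are a description with no test. Of the 14 genes from Pcdhb2 to Pcdhb15, 11 had the lower mean in G/G, with a median log2 difference of -0.09 and sums of 141.0 CPM in S/S and 135.1 in G/G. Of the 7 genes from Pcdhb16 to Pcdhb22, 6 had the higher mean in G/G, with a median of 0.10 and sums of 151.0 and 159.9 CPM. Over all genes, 47.2% had the higher mean in G/G. In the first stretch Pcdhb11 went against the others, with 10.54 CPM in S/S and 12.41 in G/G (log2 0.24, 95% counting interval 0.07 to 0.40). In the second Pcdhb21 had 10.50 and 12.07 CPM (log2 0.20, interval 0.03 to 0.37). Pcdhb21 and Pcdhb22, both higher in G/G, share 9.7% and 6.9% of their exon bases with each other, so reads there are uncertain. Beyond 2 counting standard errors lay 6 of the 21 genes (28.6%), beside 15.2% of all genes. The 2 genes of the second stretch with recovered reads, Pcdhb16 and Pcdhb18, overlapped between the genotypes. The Spearman correlation of the log2 difference with place was 0.64 over the 21 Pcdhb genes, -0.64 over the 12 Pcdha genes with a gene model and -0.03 over 22 Pcdhg genes. Over the 8 Pcdhb genes with recovered reads it was 0.71. Between the 2 libraries of 1 genotype (fewer over more counted reads) it was 0.43 in S/S and -0.33 in G/G. Level also went with place, with correlations of 0.50 (Pcdhb), 0.43 (Pcdha) and 0.38 (Pcdhg) between CPM per kb and place. In the Pcdhb genes the log2 difference had a correlation of 0.46 with level. The genes of an array share libraries and neighbors, so the points are not independent, and the correlations use the same values in which the split was noticed.

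**Figure D4:**
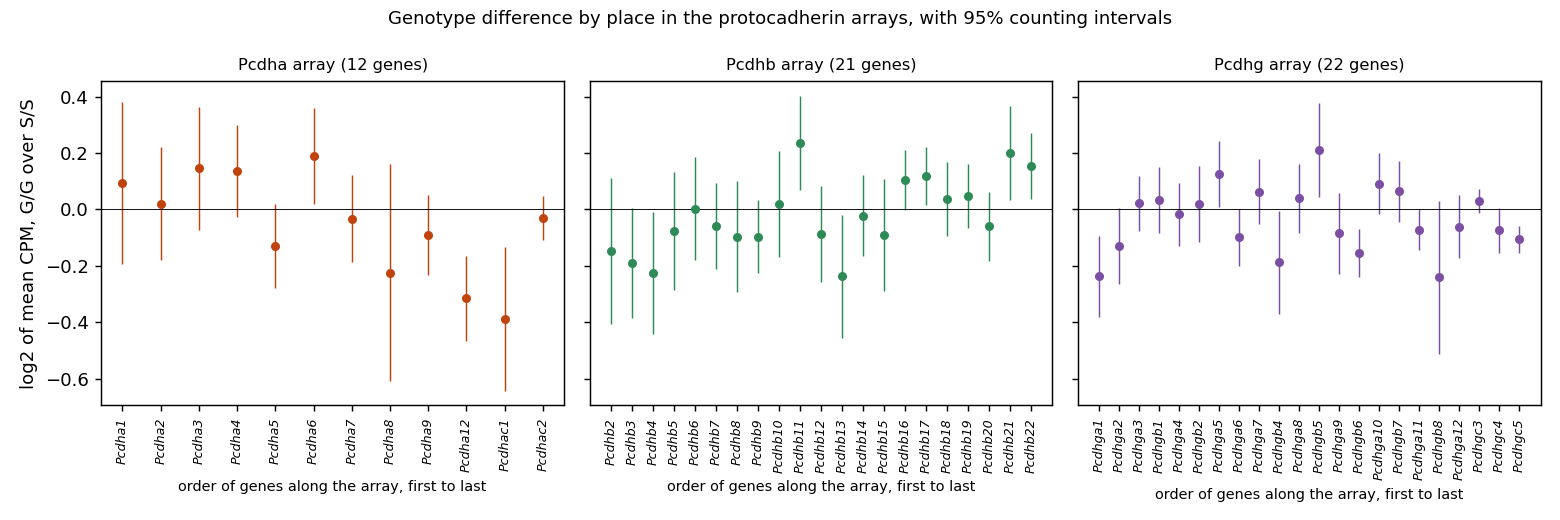
Log2 of the mean CPM in Unc80 G/G over Unc80 S/S by the order of the genes along the Pcdha, Pcdhb and Pcdhg arrays, with bars for 95% counting intervals. In the Pcdhb array 11 of the first 14 genes lie below 0 and 6 of the last 7 above, while the Pcdhg genes show no trend with place (Spearman correlation -0.03). The split of the Pcdhb genes was chosen after the values were seen, and over all genes 47.2% lie above 0.

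The genes that work with cadherins showed no member past 1.3-fold in either direction in any of 4 lists, beside 1.42% of all genes higher and 0.929% lower, a background at which lists of this length would hold few such genes or none. Of 12 measured catenins and adaptors, 6 had the higher and 6 the lower mean in G/G, and beta-catenin (Ctnnb1) had 478.0 CPM in S/S and 482.8 in G/G. Of 16 measured genes of the wider cadherin superfamily, 9 were higher and 7 lower. There Cdhr1, a marker of mitral and tufted cells, had 566.5 and 539.9 CPM, Clstn1 (calsyntenin 1) had 444.8 and 427.3, and the giant cadherin Fat1 had 356.5 and 366.9. The 22 genes of protocadherin promoter choice and chromatin divided into 12 higher and 10 lower. Among them Ctcf had 98.77 CPM in S/S and 97.08 in G/G, the cohesin subunit Rad21 had 161.4 and 163.7, the DNA methyltransferase Dnmt3a had 259.2 and 264.9, and the cohesin loader Nipbl had 129.3 and 138.3 (log2 0.10, adjusted p = 0.974 in edgeR). Of the 24 cytoplasmic partners and sheddases, 9 were higher and 15 lower, with Cyfip2 of the WAVE complex at 409.3 and 403.5 CPM, Nckap1 at 371.4 and 359.5, and the kinase Ptk2b (Pyk2), which binds protocadherin cytoplasmic domains, at 307.7 and 299.7. Among the genes of these lists with recovered reads (2, 1 and 1 in the last 3 lists, and 0 catenins), edgeR called none, beside 0.0928% of all genes with recovered reads. At that share so few genes would hold no call in any case, so the lack of calls does not describe the lists.

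The defining markers of the bulb were present. Those of granule and periglomerular cells summed to 4054 CPM in S/S and 4060 in G/G, and those of mitral and tufted cells, without Lhx5, to 1764 and 1721. Over all genes, 47.2% were higher in G/G. All 8 neuroblast markers had the higher mean in G/G, with a median log2 difference of 0.044 and sums of 1027 and 1056 CPM. Of 9 markers of meningeal fibroblasts 7 were lower, with sums of 223.3 and 209.4 CPM, and of 8 measured markers of pericytes and smooth muscle 6 were lower, with sums of 230.5 and 225.5 CPM. Of 6 measured markers of olfactory sensory neuron axons 5 were higher, with sums of 344.3 and 362.4 CPM. Granule and periglomerular markers were 6 higher and 3 lower, and mitral and tufted markers 3 and 5. Astrocyte markers were 6 and 2, microglia markers 5 and 3, and olfactory ensheathing markers 3 and 5. Oligodendrocyte markers were 5 and 4, and those of frontal cortex and anterior olfactory nucleus 4 and 3. The 6 measured choroid plexus markers summed to 9.99 CPM in S/S and 13.9 in G/G, with 4 higher and 2 lower. Most of that difference was in Ttr (transthyretin), with 0.88 and 3.64 CPM, which was 1 of the 2 genes called by edgeR among all with recovered reads (adjusted p = 0.0143). That call was lost without the S/S library with fewer counted reads (edgeR adjusted p = 0.144), without the G/G library with more counted reads (0.459), in limma (0.664) and in DESeq2 (0.998). The part of these cell types in the values of the adhesion genes was not tested.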

How the data were processed

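The authors extracted RNA from olfactory bulbs and sequenced 75-base paired-end reads. The kit is a TruSeq mRNA kit per the labels and a stranded total RNA kit in the methods. Partek was used for trimming, alignment to GRCm38 (mm10) and comparison, and neither the aligner nor the annotation, counting or normalization is given in the sources used here. The deposited table holds the mean CPM of each genotype for 15818 genes, and the lowest mean over both genotypes was 1.01. Deposited counts of total reads were used only for depth. The authors' p-values, adjusted p-values, ratios and signed fold changes (the table's ratio and score columns) were not used.

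Each mean was written as whole reads of the 2 libraries of a genotype plus an offset of 0.0001 CPM, and accepted if in both genotypes another fit had a chance under 0.0001 (2155 genes, 13.6%). Genotypes were compared on these counts in edgeR 4.0.16 (quasi-likelihood F-test, counted reads as library sizes, Benjamini-Hochberg adjustment), and as alternatives with TMM scaling, DESeq2 1.42.0 and, on log2(CPM + 1), limma 3.58.1 (R 4.3.3). The method was tested on simulated data. All other differences are ratios of means, with counting errors from the CPM and the counted reads. Exon lengths came from GENCODE M21, in which 86 members matched 1 gene, and promoters from RefSeq. Python 3.11.15, numpy 2.4.6, pandas 2.3.3 and matplotlib 3.10.9 were used.

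The members and gene lists were chosen with earlier results of these data known. Named in each class were the 3 genes of highest CPM per kb, the 2 largest differences in each direction from a mean of 5 CPM, genes past 1.3-fold or nearest to it, and all members with recovered reads; Pcdhgc4, the ends of each order and the array split were added after their values were seen. From the lists, those of highest mean or with an unadjusted p under 0.05 were eligible, and Ctcf, Nipbl and Ttr were added after their values were seen. Nothing in the labels or methods shows more than pools of mice, so p-values measure the spread between pools, and all intervals cover counting error only.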

Additional observations from a re-analysis of the deposited data

How the results depend on the processing

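The count of members past 1.3-fold (0 higher and 1 lower in G/G) was 1 higher and 2 lower at 1.2-fold, 0 lower at 1.5-fold, 0 lower from a mean of 5 CPM and 0 lower on log2(CPM + 1). Beyond 2 counting standard errors, a limit chosen after seeing the data, there were 12 higher and 9 lower, beside 7.41% and 7.78% of all genes. Class medians and sums moved by less than 0.087 (log2), the median SD of a gene between libraries of a genotype, under every alternative run for them. Every class median and sum was itself smaller in size than this limit, so the limit cannot show that a sign was stable. The median of the numbered cadherins was 0.005 over all of them and -0.01 from a mean of 5 CPM. No alternative gave a recovered member an adjusted p under 0.05, and the lowest was 0.856. The number with an unadjusted p under 0.05 ranged from 0 to 2 when each library was left out, and the 2 were Pcdhb13 and Pcdhb4 without the G/G library with fewer counted reads. With 1 library left in a genotype, it was assumed to vary like the other genotype. The log2 difference changed sign as each library was left out for Cdh15 (-0.03 to 0.13), Cdh20 (-0.07 to 0.07), Cdh5 (-0.23 to 0.05), Pcdhb14 (-0.05 to 0.01), Pcdhb15 (-0.20 to 0.02) and Pcdhb18 (-0.01 to 0.09), and the cause was not tested. Over all 2155 genes edgeR called 2, 6 with TMM scaling and 0 from a mean of 5 CPM, DESeq2 called 1 (16 at an unadjusted p under 0.05) and limma 0 (115). No paired analysis was possible because the genotype means carry no replicate numbers. The recovered genes are 13 of 87 members and include no Pcdha, Pcdhg or nonclustered gene, so for those classes the spread between pools is unknown.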
